A study of Mus musculus with 6 samples.

Results

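The insulin-like growth factor (IGF) system was followed through 10 genes of 22246 in the expression table: the ligand gene Igf2, the receptor genes Igf1r, Igf2r and Insr, and the 6 binding protein genes Igfbp2 to Igfbp7. The genes were taken by name and were selected on earlier results of the same comparison, so their differences between the groups are described here without a test. The libraries came from HL-1, an immortal cell line of mouse atrial muscle origin, with the strain given as C57BL/6 and the tissue as heart. There were 3 libraries from cells with a control short hairpin RNA (shRNA) and 3 from cells with an shRNA directed at Smyd4, which encodes a SET and MYND domain protein. The labels give no age, dose or time, and leave unsaid whether replicate libraries stem from independent cultures; p-values here cover the spread among 6 libraries, which may be technical.

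IGF1 and IGF2 are secreted peptides that act through the receptor tyrosine kinase IGF1R and, for IGF2, through a form of the insulin receptor, and the signal passes by IRS adaptors, PI3K and AKT to mTOR and to FOXO transcription factors. IGF2R, which is also a mannose 6-phosphate receptor, takes IGF2 into lysosomes without passing on such a signal. The secreted IGF binding proteins hold the peptides outside the cell, prolong their life or keep them from the receptor, and are themselves cut by proteases; in the heart the system is known for roles in the growth and survival of muscle cells.

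Levels are given as FPKM, fragments counted over the gene's length in kilobases and scaled for sequencing depth, so that genes can be compared with each other. The deposited values gave back whole reads, with totals of 23414417 to 25267539 for control and 20755667 to 26387534 for the other group. Smyd4, the targeted gene, had 12.5, 12.8 and 13.5 FPKM in the control libraries and 12.6, 12.3 and 11.9 in those labelled Smyd4 shRNA. The groups overlapped, and the difference of 5.07% did not pass the test (log2 change -0.07, SE 0.04, adjusted p = 0.173, limma with Benjamini-Hochberg adjustment). The Smyd4 mRNA therefore did not separate the groups as labelled, and the treated group is called the libraries labelled Smyd4 shRNA throughout. Of 11 cardiomyocyte markers listed, 10 were measured, and Nppa was not. Of the 10, 4 reached a mean of 1 FPKM in control, namely Nppb, Tnnt2, Nkx2-5 and Gata4. Myh6, Actc1, Myl7, Tnni3, Myl4 and Ryr2 stayed under 1 FPKM in every library. The skeletal myoblast list reached 1 FPKM for 4 of 5 genes. Their control means were 18.8 FPKM for Myod1, 8.68 for Myf5, 49.9 for Chrna1 and 137 for Des. The fibroblast list reached 1 FPKM for 5 of 8 genes and the smooth muscle list for 2 of 4. The macrophage list did so for 1 of 5 and the endothelial list for 0 of 4. The markers thus go partly against the atrial cardiomyocyte named by the line.

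Promoters of the 4 binding protein genes that carried most of the differences are shown for orientation, each from 250 bases before to 50 bases after the start of transcription, from RefSeq on GRCm38.p6. Capitals mark matches to the GC box GGGCGG or the TATA box TATAAA on either strand; where the match is on the minus strand, the capitals show its reverse complement.
Igfbp2, chr1:72824230-72824529, plus strand: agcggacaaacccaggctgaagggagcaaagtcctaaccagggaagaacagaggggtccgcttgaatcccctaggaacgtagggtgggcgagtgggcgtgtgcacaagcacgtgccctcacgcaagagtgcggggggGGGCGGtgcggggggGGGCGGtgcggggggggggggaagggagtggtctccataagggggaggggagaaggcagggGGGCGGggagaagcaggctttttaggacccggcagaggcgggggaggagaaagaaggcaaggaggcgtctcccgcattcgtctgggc
Igfbp3, chr11:7213874-7214173, minus strand: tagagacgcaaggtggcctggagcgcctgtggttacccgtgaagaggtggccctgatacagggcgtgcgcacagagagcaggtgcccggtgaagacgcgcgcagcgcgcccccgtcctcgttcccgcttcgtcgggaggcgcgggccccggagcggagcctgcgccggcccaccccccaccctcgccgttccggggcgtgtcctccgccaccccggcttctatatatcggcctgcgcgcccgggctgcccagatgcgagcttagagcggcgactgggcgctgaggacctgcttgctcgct
Igfbp5, chr1:72874816-72875115, minus strand: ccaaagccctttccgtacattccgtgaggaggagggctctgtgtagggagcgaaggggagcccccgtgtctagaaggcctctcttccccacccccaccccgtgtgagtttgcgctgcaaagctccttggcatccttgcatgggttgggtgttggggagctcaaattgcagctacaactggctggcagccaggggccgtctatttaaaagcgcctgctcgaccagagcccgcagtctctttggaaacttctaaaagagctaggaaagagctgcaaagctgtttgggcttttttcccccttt
Igfbp6, chr15:102143936-102144235, plus strand: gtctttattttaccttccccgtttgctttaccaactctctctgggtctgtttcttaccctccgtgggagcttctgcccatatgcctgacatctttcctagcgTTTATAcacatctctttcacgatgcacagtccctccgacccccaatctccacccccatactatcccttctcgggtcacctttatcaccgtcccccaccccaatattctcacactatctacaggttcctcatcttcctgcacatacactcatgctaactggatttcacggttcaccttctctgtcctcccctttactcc

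The Igfbp2 window held 3 GC boxes, with first bases at -113, -98 and -37 from the start, and 18 CpG dinucleotides. The Igfbp3 window held 37 CpG, the most of the 4, and no match to either motif, while Igfbp5 held 10 CpG and no match. The Igfbp6 window held 8 CpG and 1 TATA box, on the minus strand at -148. In all, 13 RefSeq windows were found for 9 of the 10 genes, leaving Insr; 6 windows held a GC box, against 35.7% of 32851 mouse promoters, and 2 held a TATA box, against 13.6%. Also searched on both strands were the AP-1 motif TGANTCA, held by 1 window (a second Igfbp2 start) and by 7.81% of all promoters, the FOXO motif GTAAACA (3.65% of all), the E-box CAGCTG (16.3%) and the NF-kB motif (4.79%), and the last 3 were in none of the 13 windows. The median promoter held 7 CpG. These matches are letters in a window and say nothing of the factors.

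The IGF system in these cells was an mRNA pool made mostly of binding proteins, with a ligand near the limit of detection. In the libraries labelled Smyd4 shRNA, the mean FPKM of Igfbp2 and Igfbp3 was 11.6-fold and 42.4-fold lower. For Igfbp3 the labelled group held only 14 reads, so the size of its fold is uncertain. By mean FPKM, Igfbp5 was 30.4% lower, Igfbp4 and Igfbp6 were 1.43-fold and 1.73-fold higher, and the receptors were lower by 9.71% to 13.0%. Over the 11325 genes that averaged 1 FPKM or more, limma called 48.3% different, 25.1% higher and 23.3% lower, and the groups did not overlap for 57.8%. Beside these shares, 9 of the 10 members passed the filter on low values, and Igf2 did not. Of the 9, 7 had groups that did not overlap. The members were chosen on this comparison, so nothing is read from the count.

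**Figure D1:**
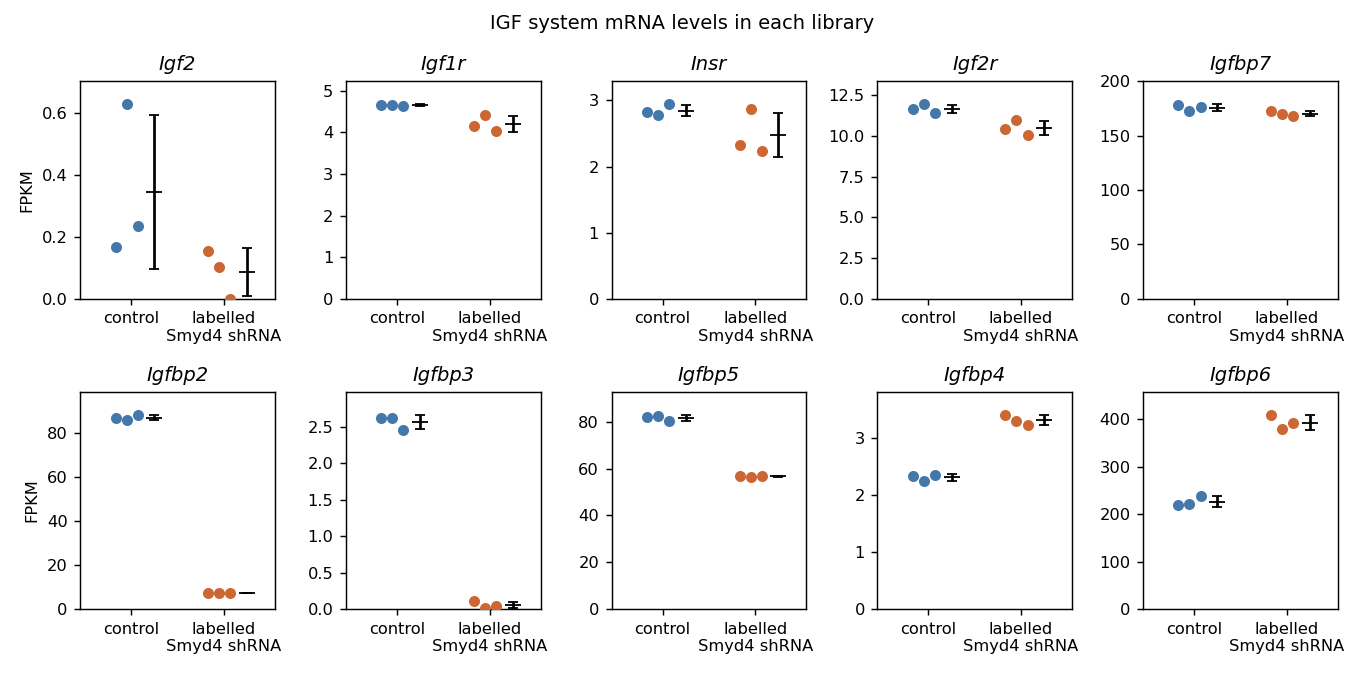
FPKM of the 10 IGF system genes in each library, 1 panel a gene with its own axis from 0; points are libraries 1 to 3 of a group from left to right, and the bar beside them is the mean ± SD (n = 3). Igfbp2 and Igfbp3 sit close to the axis in the libraries labelled Smyd4 shRNA, Igfbp4 and Igfbp6 sit above the control points, and only Insr and Igfbp7 overlap.

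Igf2, on chr7:142650766-142666816 (minus strand, GRCm38, GENCODE M21), encodes the ligand IGF2. Its level was 0.168, 0.627 and 0.234 FPKM in the control libraries and 0.154, 0.104 and 0 in those labelled Smyd4 shRNA. These values rest on 23, 85 and 34 reads against 23, 15 and 0 reads, and the 0 allows a level of up to 0.0253 FPKM (3 reads; counting error only). The groups did not overlap, but the lowest control library lay just above the highest of the other group, and control replicate 2 held most of the control reads. The mean difference on log2(FPKM + 0.5) was -0.50 and was -0.27 without control replicate 2; Igf2 was too low to enter the test. Igf2 overlaps Igf2os on the other strand, and without stated strand the reads cannot be told apart. Igf1, the other ligand measured, was at 0.111 ± 0.0122 FPKM (SD, n = 3) in control and 0.0740 ± 0.0158 in the labelled group. It was likewise too low for the test. The genes Ins1 and Ins2 were listed but not measured.

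The 3 receptors were each slightly lower in the libraries labelled Smyd4 shRNA. Igf1r (chr7:67952827-68233668, plus strand), the receptor tyrosine kinase for both IGFs, was at 4.67, 4.66 and 4.64 FPKM in control and at 4.15, 4.42 and 4.05 in the labelled libraries. Its means were 4.66 ± 0.0176 and 4.21 ± 0.192, a log2 difference of -0.13 (SE 0.03). All 3 control libraries lay above all 3 others, but the labelled libraries were spread more widely. Igf2r (chr17:12682406-12769664, minus strand), the clearance receptor for IGF2, was at 11.6, 11.9 and 11.4 FPKM in control and 10.4, 11.0 and 10.1 in the labelled group, 9.92% lower. Its groups did not overlap either; the gene overlaps Airn on the other strand. Insr (chr8:3122061-3279617, minus strand), the insulin receptor, was at 2.83, 2.77 and 2.94 FPKM against 2.33, 2.86 and 2.23. The second labelled library lay among the control libraries, so the groups overlapped, and the difference of 13.0% was close to the spread (2.85 ± 0.0858 and 2.48 ± 0.339). Its log2 difference of -0.18 was -0.27 without labelled replicate 2, -0.12 without labelled replicate 3 and -0.11 under quantile normalization. Insr overlaps the gene Vmn2r-ps88 on the other strand.

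The receptors kept their order of level, Igf2r above Igf1r above Insr, in both groups, with no overlap between neighbours in that order. Igf2r was 2.50 ± 0.0529 times Igf1r per length in control and 2.50 ± 0.0183 times in the labelled group (SD, n = 3). The ratio of Igf1r to Insr was 1.64 ± 0.0542 and 1.71 ± 0.147, with groups that overlapped. M6pr, the smaller mannose 6-phosphate receptor that does not bind IGF2, was listed with earlier results known, like all other pathway genes below, but is not one of the 10. It fell from 39.1 ± 0.712 to 35.0 ± 1.09 FPKM (log2 change -0.16, SE 0.03, adjusted p = 0.0035, limma), the single tested gene of its role.

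Igfbp2 (chr1:72824503-72852474, plus strand), a binding protein abundant in fetal tissues that holds IGF2 well, had 86.8, 86.1 and 88.3 FPKM in the control libraries. The libraries labelled Smyd4 shRNA had 7.38, 7.52 and 7.66 FPKM. All 3 stood far below control, at means of 87.1 ± 1.13 and 7.52 ± 0.143, a log2 difference of -3.45 (SE 0.02). The values rest on 3769 to 4137 reads against 293 to 356. Among the tested genes Igfbp2 stood at percentile 94.4 of level in control and 42.8 in the labelled group, where it passed from the third place in the system to the fifth, below Igf2r.

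Igfbp3 (chr11:7206086-7213923, minus strand) encodes the main carrier of IGFs in blood. It was at 2.62, 2.63 and 2.46 FPKM in control and at 0.110, 0.0253 and 0.0463 FPKM in the labelled group. It passed the filter on low values only through control. In reads this was 196, 195 and 195 against 9, 2 and 3, so the labelled libraries were near the limit of detection while control was not. Scaled for depth, 586 reads against 14 gave a ratio of 41.4 (95% exact interval 24.5 to 76.1, counting error only). On log2(FPKM + 0.5) the difference was -2.45 (SE 0.07), but it depends on the pseudocount: it was -4.09 with 0.1, -1.75 with 1 and -5.34 in edgeR's count model. The authors' deposited table lists a log2 fold change of -3.43 for Igfbp3. In the labelled libraries Igfbp3 had the lowest mean of the system, and its values overlapped those of Igf2.

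Igfbp5 (chr1:72857932-72874884, minus strand), a binding protein common in muscle and bone, was at 81.8, 82.6 and 80.0 FPKM in control. It was at 56.9, 56.4 and 56.8 FPKM in the libraries labelled Smyd4 shRNA, with log2 difference -0.52 (SE 0.01). The groups were far apart against their spread (81.5 ± 1.30 and 56.7 ± 0.275). Igfbp5 and Igfbp2 lie on chromosome 1 with their ends 5.457 kb apart, on opposite strands. In control the levels of the pair were close, 81.5 and 87.1 FPKM, while in the labelled group Igfbp5 stood well above Igfbp2.

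Igfbp4 (chr11:99041244-99054392, plus strand), a binding protein known mainly as an inhibitor of IGF action, was at 2.34, 2.24 and 2.35 FPKM in control and 3.40, 3.29 and 3.23 in the labelled libraries. All 3 labelled libraries were above all 3 control libraries (2.31 ± 0.0620 and 3.30 ± 0.0864; log2 difference 0.44, SE 0.03). Igfbp6 (chr15:102144362-102149511, plus strand), which prefers IGF2 to IGF1, was at 219, 221 and 239 FPKM in control and 409, 379 and 391 in the labelled libraries. It was the highest gene of the system in both groups, at percentile 98.3 and then 99.0 of the tested genes, and its groups did not overlap (227 ± 11.2 and 393 ± 15.0; log2 difference 0.79, SE 0.05). Igfbp7 (chr5:77349240-77408041, minus strand, GENCODE M21), which binds IGFs weakly, was at 179, 173 and 176 FPKM against 173, 170 and 168. Its groups overlapped, at means of 176 ± 3.04 and 170 ± 2.48 FPKM, 3.16% lower. Its log2 difference of -0.05 was -0.08 under quantile normalization. Igfbp7 overlaps Polr2b and Gm34648 on the other strand.

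Summed over the 6 binding protein genes, the level was 571, 568 and 589 FPKM in the control libraries and 650, 616 and 627 in those labelled Smyd4 shRNA. The sum was thus higher in every labelled library, although 4 of the 6 genes were lower on average. Without Igfbp6 the order turned, at 349 ± 3.02 FPKM in control and 238 ± 2.57 in the labelled group. Igfbp6 made up 39.3% of the sum in control and 62.3% in the labelled group. The share of Igfbp2 was 15.1% and then 1.19%, and that of Igfbp5 was 14.2% and then 8.99%. Igfbp7 held 30.5% and 27.0%, while Igfbp3 and Igfbp4 held under 1% in both. In bulk libraries, fewer cells of a type and less RNA per cell cannot be told apart.

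**Figure D2:**
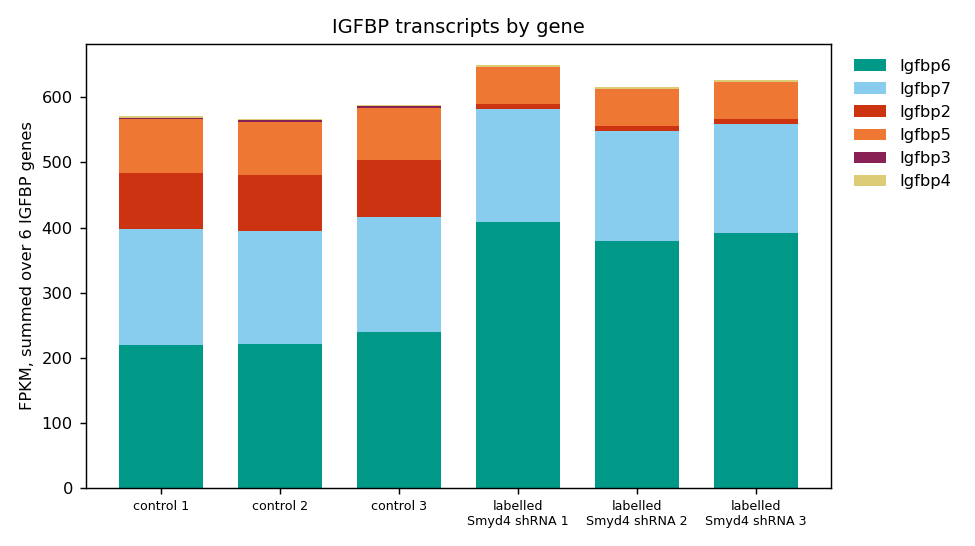
FPKM of the 6 binding protein genes stacked for each library (y axis, summed FPKM from 0). The bars of the 3 labelled libraries are taller, at 616 to 650 against 568 to 589, with a larger Igfbp6 part and a thin Igfbp2 part.

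Markers of other cell types also differed between the groups. The summed level of the 5 skeletal myoblast markers was 212 to 217 FPKM in control and 120 to 124 in the labelled libraries. Most of this sum was Des, at 137 and 102 FPKM. Chrna1 was at 49.9 and 9.59, Myod1 at 18.8 and 5.31 and Myf5 at 8.68 and 4.83, while Myog stayed under 1 FPKM. The 4 smooth muscle markers summed to 301 to 315 and 197 to 205 FPKM, most of it from Acta2 at 292 and 196. Tagln was at 15.8 and 3.82 FPKM, and Myh11 and Cnn1 stayed under 1 FPKM in every library. The 10 cardiomyocyte markers summed to 20.5 to 22.2 and 28.4 to 30.2 FPKM and the 8 fibroblast markers to 239 to 246 and 270 to 282. The macrophage markers summed to 2.02 to 2.20 and 1.88 to 1.90 FPKM, and the endothelial markers to 0.125 to 0.168 and 0.0473 to 0.567. The sums hid members that differed in the other direction. In the fibroblast list Dcn was at 26.3 and 1.72 FPKM and Pdgfra at 4.35 and 2.94, while Col1a1 was at 37.6 and 69.3 and Col1a2 at 60.5 and 84.9. Col3a1, the highest of that list, was at 114 and 116 FPKM, with groups that overlapped. In the cardiomyocyte list Nppb was at 2.15 and 0.484 FPKM, while Tnnt2 was at 7.11 and 11.7 and Nkx2-5 at 3.57 and 7.68. Lum, Thy1 and Postn in the fibroblast list and Ptprc and Adgre1 in the macrophage list were near 0. The part of these differences in the levels of the binding proteins was not tested.

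The genes whose pattern over the 6 libraries was nearest to that of Igfbp2, by Euclidean distance of log2(FPKM + 0.5) from the control mean among 7603 genes, were Mmp2 (distance 0.242), Stc1 (0.285), Dcn (0.421) and Nefl (0.784). Dcn, the proteoglycan decorin, went from 26.3 to 1.72 FPKM and Nefl, a neurofilament subunit, from 35.3 to 3.99. Nearest to Igfbp6 were Chac1 (0.0613), Adh7 (0.0702), Aldh3a1 (0.0966) and Slc7a5 (0.110). Chac1 degrades glutathione, Slc7a5 carries large neutral amino acids, and Adh7 and Aldh3a1 oxidise alcohols and aldehydes. Their levels were 67.7 and 117 FPKM for Chac1, 13.9 and 24.4 for Adh7, 199 and 337 for Aldh3a1 and 59.8 and 102 for Slc7a5. The distance takes in the size of the difference between the groups, so near genes are those with a like fold change and need share no pattern within groups. All 8 were picked for this likeness on the same 6 libraries, so it is a description only.

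Of 77 other pathway genes listed by role, 71 were measured and 55 were high enough to test. Of the 55, 17 were higher, 18 were lower and 20 did not pass. Ins1, Ins2, Insrr, Igfbp1, Igfbpl1 and Irs4 were not measured. The median log2 change of the 55 was 0.02, and that of all 11325 tested genes was 0.02 as well. Over all tested genes 25.1% were higher and 23.3% were lower. These lists were also drawn up with earlier results known, so their tests are no independent support. Of the 55, 5 had a mean under 1 FPKM in 1 group and passed the filter through the other. Of the 16 measured genes that were too low to test, 7 had groups that did not overlap, 6 of them lower in the labelled group. No such share was computed over all genes too low to test, so nothing is read from this count.

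**Figure D3:**
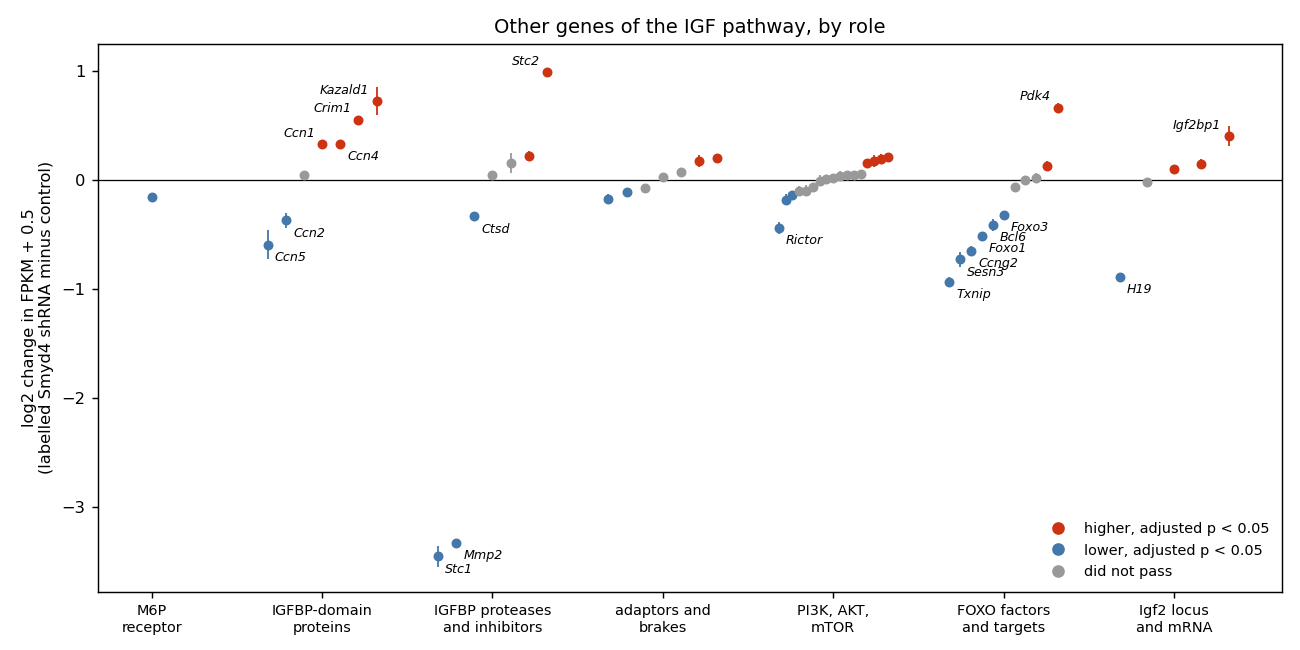
Log2 change in FPKM + 0.5 (y axis, labelled Smyd4 shRNA minus control) of the 55 tested pathway genes outside the selected 10, by role; bars are the SE of limma's estimate, and colours give the call. Most changes lie near 0, while Stc1 and Mmp2 lie at -3.45 and -3.33.

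Among genes for other proteins with an IGFBP domain, 7 were tested, 4 rose, 2 fell and 1 did not pass. Over all tested genes 25.1% were higher and 23.3% were lower. The median log2 change of the 7 was 0.33, beside 0.02 for all tested genes. Crim1, a transmembrane protein that binds bone morphogenetic proteins, rose from 12.1 ± 0.181 to 18.0 ± 0.579 FPKM (log2 change 0.55, adjusted p = 6e-06, limma). It overlaps Fez2 on the other strand. Ccn1 and Ccn4, matricellular proteins, rose from 85.6 to 108 and from 25.9 to 32.7 FPKM (log2 change 0.33 each, adjusted p = 7.8e-05 and 3.1e-05, limma). Other members of the same family fell instead, with Ccn2, known as connective tissue growth factor, from 4.18 to 3.12 FPKM (log2 change -0.37, adjusted p = 0.0024) and Ccn5 from 1.47 to 0.810 FPKM (log2 change -0.59, adjusted p = 0.0072). Ccn5 passed the filter only through control (adjusted p = 0.025 with no filter, in a range of 0.000528 to 0.0305), and Ccn3 of the same family, at 0.263 and 0.0315 FPKM, was too low to test and is named after its values were seen.

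The proteases of the binding proteins and their inhibitors held the largest changes of the listed genes. Of 7 tested, 2 rose, 3 fell and 2 did not pass, beside 25.1% higher and 23.3% lower over all tested genes. Mmp2, the gelatinase that also cuts IGFBPs, had 45.7, 44.6 and 45.6 FPKM in control and 4.26, 4.05 and 3.85 FPKM in the labelled group. The mean was 11.2-fold lower, with no overlap (log2 change -3.33, SE 0.04, adjusted p = 9.6e-10, limma). Stc1 and Stc2 encode stanniocalcins, which inhibit the IGFBP protease PAPP-A. Stc1 fell from 12.1, 13.2 and 12.5 FPKM to 0.542, 0.877 and 0.697 (log2 change -3.45, SE 0.10, adjusted p = 1.3e-07, limma). It passed the filter only through control, and its adjusted p was 1e-05 with no filter, in a range from 2.5e-25. Stc2 rose from 8.44, 8.61 and 8.96 FPKM to 17.7, 17.8 and 17.6 (log2 change 0.99, SE 0.03, adjusted p = 2.6e-07). Both stanniocalcin genes therefore changed, in opposite directions. Ctsd, the lysosomal protease cathepsin D, fell from 184 to 146 FPKM (log2 change -0.33, adjusted p = 3.9e-05), and Ide, which degrades insulin, rose from 22.7 to 26.6 FPKM (log2 change 0.22, adjusted p = 0.002).

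Of 7 tested adaptors and brakes, 2 rose, 2 fell and 3 did not pass, beside 25.1% higher and 23.3% lower over all tested genes. Grb14, an adaptor that restrains the insulin receptor, was under the filter on low values and is named after its values were seen. It had 0.907, 0.840 and 0.939 FPKM in control and 0.0852, 0.105 and 0.155 in the labelled group, 7.80-fold lower on average with no overlap and with no test. Irs1, the docking protein of both IGF1R and the insulin receptor, rose from 17.5 ± 0.577 to 20.2 ± 0.760 FPKM (log2 change 0.20, adjusted p = 0.003, limma). Irs2, its relative, rose from 2.80 to 3.22 FPKM (log2 change 0.17, adjusted p = 0.031). The Irs2 call was lost without control replicate 1 (adjusted p = 0.0633), control replicate 2 (0.0998), labelled replicate 1 (0.0722) or labelled replicate 3 (0.091), in a range of 0.0105 to 0.0998 over 14 alternatives. Grb2, the adaptor to RAS, fell from 40.0 to 37.1 FPKM (log2 change -0.11, adjusted p = 0.0091). Gab1, a scaffold for PI3K, fell from 3.85 to 3.35 FPKM (log2 change -0.18, adjusted p = 0.016) and was lost without control replicate 1 (0.0599) and with quantile normalization (0.0535), in a range from 0.00639.

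In the PI3K, AKT and mTOR relay 17 genes were tested, of which 4 rose, 3 fell and 10 did not pass. The shares over all tested genes were 25.1% higher and 23.3% lower. Akt1, the kinase, rose from 100.4 to 112 FPKM (log2 change 0.15, adjusted p = 0.0048, limma). Pik3r2, a regulatory subunit of PI3K, rose from 27.8 to 31.9 FPKM (log2 change 0.19, adjusted p = 0.0094). Rptor and Rictor, the defining subunits of the 2 mTOR complexes, differed in direction. Rptor rose from 7.52 ± 0.0474 to 8.77 ± 0.465 FPKM (log2 change 0.21, adjusted p = 0.005) and Rictor fell from 7.34 ± 0.393 to 5.28 ± 0.256 FPKM (log2 change -0.44, adjusted p = 0.00028). Mtor itself fell from 8.19 to 7.40 FPKM (log2 change -0.14, adjusted p = 0.021), a call that was lost without control replicate 1 (0.0788), labelled replicate 1 (0.0622) or labelled replicate 2 (0.0658), in a range of 0.0014 to 0.0788. Pik3r3, another PI3K subunit, fell from 5.60 to 4.89 FPKM (log2 change -0.18, adjusted p = 0.016), lost without control replicate 1 (0.058), control replicate 2 (0.0506) or labelled replicate 1 (0.0511), in a range from 0.00339.

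FOXO factors, which AKT keeps out of the nucleus, and genes known as their targets gave 11 tested genes. Of these, 2 rose, 6 fell and 3 did not pass, beside 25.1% higher and 23.3% lower over all tested genes. Their median log2 change was -0.32, beside 0.02 for all tested genes. Foxo1 fell from 6.26 ± 0.162 to 4.23 ± 0.0412 FPKM (log2 change -0.51, adjusted p = 2.4e-05, limma). Txnip, an inhibitor of thioredoxin and of glucose uptake, fell from 19.7 ± 0.0569 to 10.1 ± 0.580 FPKM (log2 change -0.93, adjusted p = 1.3e-06) and overlaps Gm15441 on the other strand. Ccng2, an atypical cyclin of arrested cells, fell from 7.44 to 4.56 FPKM (log2 change -0.65, adjusted p = 7.4e-06). Pdk4, the kinase that shuts off pyruvate dehydrogenase, rose instead, from 8.38 ± 0.229 to 13.6 ± 0.524 FPKM (log2 change 0.66, adjusted p = 5.4e-06). Sesn1, a stress-induced sestrin, rose from 13.5 to 14.8 FPKM (log2 change 0.13, adjusted p = 0.044, limma). Its call was lost without control replicates 1 (0.0825), 2 (0.125) or 3 (0.0766) and without labelled replicates 1 (0.12) or 3 (0.123), in a range from 0.00728. Another sestrin, Sesn3, named after its values were seen, fell from 4.17 to 2.32 FPKM (log2 change -0.73, adjusted p = 6.4e-05, limma).

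Of the regulators of the Igf2 locus and of Igf2 mRNA, 5 were tested, 3 rose, 1 fell and 1 did not pass. Beside this, 25.1% of all tested genes were higher and 23.3% lower. H19, the noncoding RNA transcribed next to Igf2 and expressed from the maternal chromosome, had 18.1, 18.7 and 19.3 FPKM in control and 9.89, 10.2 and 9.41 FPKM in the labelled group. All 3 labelled libraries were lower (log2 change -0.89, SE 0.04, adjusted p = 1.3e-06, limma), and H19 was far above Igf2 in every library. Igf2bp1, which binds Igf2 mRNA, rose from 0.831 to 1.25 FPKM (log2 change 0.40, adjusted p = 0.0076), and passed the filter only through the labelled group (adjusted p = 0.0152 with no filter, in a range of 1.9e-06 to 0.0272). Ctcf, the insulator protein of the locus, rose from 23.2 to 25.7 FPKM (log2 change 0.15, adjusted p = 0.016). Igf2bp2 rose from 10.2 to 10.9 FPKM (log2 change 0.10, adjusted p = 0.036), a call lost on leaving out any 1 of the 6 libraries, with adjusted p from 0.0596 to 0.121, in a range over all alternatives from 0.02.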

How the data were processed

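RNA from 6 libraries of HL-1 cells was compared, 3 with the control hairpin and 3 labelled Smyd4 shRNA. FPKM values for 22246 Ensembl genes were used as deposited by the authors. Their deposited comparison table gives a normalized signal per library, gene lengths and the authors' log2 fold changes and p-values. Tools included TopHat2 2.0.9 and Bowtie2 2.0.6 on GRCm38, per the submitters' processing notes. Not given in the sources used here are the read counter, the annotation and whether counting used strand. Whole reads were recovered from FPKM and gene length (100% of values whole within 0.01 reads), with the authors' lengths for 5616 genes. Others took a GENCODE M21 length where it gave whole reads, or else the smallest length that did. For these other genes the whole values follow from the choice of length, and reads from a smallest length are lower bounds. Symbols were matched for 22134 genes, and coordinates are the authors' unless GENCODE M21 is named.

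Groups were compared with limma 3.58.1 (R 4.3.3) on log2(FPKM + 0.5) for genes averaging 1 FPKM or more, with Benjamini-Hochberg adjustment over all tested genes at 0.05. This scale understates changes of low genes. The 10 members, the lists and the tests were chosen with earlier results of these data known. Besides the members and Smyd4, up to 3 passing genes per direction and role, by smallest adjusted p, and the 4 genes most like Igfbp2 and Igfbp6 were named. edgeR 4.0.16 (quasi-likelihood, TMM) on the recovered reads was added after seeing the data, and called 6822 of 13773 genes. The fits were also run on simulated data with a far smaller share of changed genes than was called here, so nothing about the calls is read from those runs.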

Additional observations from a re-analysis of the deposited data

How the results depend on the processing

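No value of a member (144 values over the alternatives) or of a named pathway gene (445 values) changed direction. These were pseudocounts of 0.1 and 1, other filters, scalings and fits, edgeR on recovered reads, and each library left out in turn. Genes called higher numbered between 2299 and 3203 over them, and those called lower between 1933 and 3619. With the replicate block, 2667 genes were higher and 2474 lower, and 15 and 18 of the other pathway genes. Same-numbered libraries of the 2 groups had correlations of -0.0324, 0.0182 and 0.00689 in their deviations from the group mean. Libraries with different numbers ran from -0.0586 to 0.0534, and not every library correlated best with its own number. With 3 libraries a group, values this near 0 cannot decide whether the numbers pair the samples. Under the block the calls of Irs2 (adjusted p = 0.0508) and Igf2bp2 (0.065) were lost. Irs2 was also lost with no filter on low values (0.0732), and Sesn1 with no filter (0.089) and without limma's trend (0.0664). Reads limit Igf2 and Igfbp3, whose differences ran from -1.89 to -0.27 and from -5.34 to -1.75 on log2 scales. Causes were not tested.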

Other observations

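The nearest tested genes around the binding protein genes, chosen for a look after their values were seen, gave the following. Top2a, a topoisomerase 17.1 kb from Igfbp4, rose from 97.2 ± 0.345 to 113 ± 2.56 FPKM (log2 change 0.21, adjusted p = 0.00026, limma). Spryd3, 8.13 kb from Igfbp6, fell from 29.3 ± 0.952 to 26.2 ± 0.714 FPKM (log2 change -0.16, adjusted p = 0.00589, limma). On the other side Csad, 27.5 kb from Igfbp6, was at 7.48 and 7.44 FPKM (adjusted p = 0.902, limma). Tns1, 1035 kb from Igfbp5, fell from 26.5 to 23.9 FPKM (log2 change -0.15, adjusted p = 0.00675, limma). Rpl37a, 111 kb from Igfbp2, rose with a log2 change of 0.13 (adjusted p = 0.0331, limma). Tbrg4 and Tns3, 580 kb and 1218 kb from Igfbp3, did not pass (adjusted p = 0.457 and 0.214, limma). Smarce1, 155 kb from Igfbp4, did not pass either (0.182). The same held for Polr2b, which overlaps Igfbp7 (0.174), and Rpl7-ps7, 4929 kb from Igfbp7 (0.221). Several of these nearest tested genes are thus far away. Over all tested genes 48.3% passed.

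Fbxo32, a muscle ubiquitin ligase, and Pappa, the protease of IGFBP4 and IGFBP5, were under the filter on low values and were also chosen after their values were seen. Fbxo32 had 1.38 FPKM in control and 0.421 in the labelled libraries. Pappa had 11, 10 and 12 reads in control and 0, 1 and 1 in those labelled Smyd4 shRNA.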
